A study of Mus musculus with 6 samples.

Results

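The contacts described here are those of the 2 main clusters of Hist1 histone genes on mouse chromosome 13, read from a Hi-C list of pairs of 5 kb bins in mm9 coordinates. A pair was a member when at least 1 of its bins was centred in chr13:21750001-22150000 (the first interval) or chr13:23500001-23900000 (the second interval). Of the 3654014 pairs in the table, 1814 (0.0496%) were members. They comprised 489 pairs within the first interval, 382 within the second, and 332 that joined the intervals. The other members joined the first interval to the flank before it (212 pairs) or to the stretch between the intervals (55), and the second to that stretch (77) or to the flank after it (263). Only 2 pairs joined the second interval to the flank before the first, and 2 joined the first interval to the flank after the second.

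The cells were P19, an embryonal carcinoma line of the mouse that retinoic acid turns towards a neuronal fate, grown as monolayers. Group T0 was untreated, and groups T6 and T48 had been given all-trans retinoic acid (ATRA) at 1e-06 M for 6 h or 48 h, with 2 libraries each. No untreated cells were sampled at 6 h or 48 h, so ATRA and time in culture cannot be told apart. The labels do not state that replicates came from separate cultures, so the spread behind each p-value may be technical only.

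Hi-C ligates DNA that was near in space in fixed cells and sequences across the joints. The listed counts summed to between 23003295 and 50154643 per library, and replicate 1 had the higher sum at every time point. A pair is listed for a time point when the authors called it significant in both replicates, so the number of listed pairs has no replicate error. A pair that is not listed carries a 0, which is not a measured absence of contact. The lowest count above 0 was 3.

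Replication-dependent histone genes encode the core histones H2A, H2B, H3 and H4 and the linker histone H1, and are transcribed mainly while DNA is copied. Their transcripts end in a stem-loop in place of a poly(A) tail. The genes lie in clusters that associate with the histone locus body, a nuclear body where histone transcripts are made and processed.

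Bins were not assigned to genes, since the annotation at hand is of another build. Contacts of a cluster are therefore those of its whole interval, whichever genes its bins cover. In the RefSeq gene order of GRCm38.p6, the histone genes of chromosome 13 fell into 2 groups. The first held 24 histone genes, 23 of them protein-coding, in a run of 19 from H2bc13 to H4bc24 and a run of 5 from H2ac12 to H2bc11. Between these runs lay 39 other genes, of which 31 were tRNA genes. The protein-coding genes among them included Zfp184, which encodes a zinc finger protein, and Prss16, which encodes a thymus-specific serine protease. The second group held 32 histone genes, 31 of them protein-coding, in a run of 30 from H4c8 to H1f1 and a final pair, H2bc1 and H2ac1. Between its run and that pair lay Trim38 and the Slc17a1 to Slc17a4 transporter genes. A total of 147 genes separated the groups, including 75 of the Vmn1r family, 36 of them protein-coding, and 46 tRNA genes. The Vmn1r family encodes vomeronasal receptors for pheromones. Of the 46 tRNA genes, 45 lay after the last Vmn1r gene and before H4c8. In the tallies by family, here and for promoters below, symbols that start with H4bc, such as H4bc24, were taken as H2B. By family, the protein-coding histone genes numbered 1 H1, 7 H2A, 8 H2B, 2 H3 and 5 H4 in the first group. The second group held 5 H1, 6 H2A, 7 H2B, 7 H3 and 6 H4, so most H1 and H3 genes lay there.

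Promoter sequences are shown for the first H2B and the first H1 gene of each group in that order, to let the regulatory letters of genes from both groups be read side by side. Each is the run of 150 bases before the gene start in RefSeq GRCm38.p6, 5′ to 3′ in the gene's direction. Capitals mark the CCAAT box in the H2B genes (CCAAT or its reverse complement ATTGG) and the H1 box AAACACA in the H1 genes.
H2bc13 (first group): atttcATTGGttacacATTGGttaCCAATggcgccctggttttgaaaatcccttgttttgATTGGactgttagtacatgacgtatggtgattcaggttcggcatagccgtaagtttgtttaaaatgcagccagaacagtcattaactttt
H2bc9 (second group): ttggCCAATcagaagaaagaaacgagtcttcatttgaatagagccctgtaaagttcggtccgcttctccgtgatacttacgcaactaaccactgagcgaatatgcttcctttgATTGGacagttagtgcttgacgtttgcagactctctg
H1f5 (first group): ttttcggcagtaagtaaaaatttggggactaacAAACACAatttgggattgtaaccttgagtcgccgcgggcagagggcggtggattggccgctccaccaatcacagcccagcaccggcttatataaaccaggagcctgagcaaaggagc
H1f3 (second group): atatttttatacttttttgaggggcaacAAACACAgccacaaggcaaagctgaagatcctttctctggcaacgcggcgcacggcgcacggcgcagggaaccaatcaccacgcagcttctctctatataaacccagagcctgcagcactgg

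H2bc13 carried 4 CCAAT boxes in these letters and H2bc9 carried 2, and both H1 genes carried 1 H1 box. Over the window of 300 bases, on either strand, 51 of the 54 protein-coding histone genes of both groups matched a promoter in the table of 27025 promoters. CCAAT stood in 43 of these 51, against 37.9% of all promoters. TATAAA stood in 31 of 51, against 14.2%, and the octamer ATTTGCAT in 10 of 51, against 1.75%. The octamer was found in 5 of 13 H2A and 5 of 14 H2B promoters, and in none of the H1, H3 or H4 promoters. AAACACA stood in 5 of 6 H1 promoters, against 7.14% of all. Matches of different motifs can overlap, and a match describes the sequence, not a bound site.

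The first comparison asked how often the 2 clusters were listed in contact with each other. Across a gap of 1350 kb, 147 pairs (T0), 122 pairs (T6) and 200 pairs (T48) joined the intervals. Of the 6400 possible bin pairs, 1.355 to 2.145 Mb apart, these were 2.30% at T0 (95% Wilson interval 1.96 to 2.69%), 1.91% at T6 (1.60 to 2.27%) and 3.12% at T48 (2.73 to 3.58%). Elsewhere in the nuclear genome, 0.0173%, 0.0151% and 0.0275% of possible pairs at the same distances were listed. The share between the histone intervals was therefore 133, 126 and 114 times the genome share. On chromosome 13 alone the folds were 141, 133 and 113. These shares treat bin pairs as independent, which neighbouring bins are not, and the intervals cover counting error only.

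The pairs between the intervals made up 18.8% of all chromosome 13 pairs listed at these distances at T0, 17.8% at T6 and 15.6% at T48. On a grid of 400 kb blocks over the genome at the same separations, blocks with any listed pair had a median of 1, 1 and 2 pairs. Only 2, 3 and 1 such blocks reached the number found between the histone intervals, and all of them lay on chromosome 4. Reads from near-identical histone or tRNA genes can be placed in either cluster, and their treatment by the authors is not given in the sources used here. Their part in the counts was not tested.

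Profiles of the partners show where each interval's contacts lay. Seen from the first interval, on the side away from the second cluster, listed pairs lay both above and below the genome rate. In the stretch between the clusters, which holds the Vmn1r genes in RefSeq order, the first interval had 33, 24 and 22 listed pairs at T0, T6 and T48. The genome rate at these distances gives 105.0, 88.26 and 107.1, so the listed number was 0.314, 0.272 and 0.205 times that. Every bin was counted as possible here, though only 194 of the 270 bins of the stretch had any listed pair. The part of bins without listed pairs in these low ratios was not tested. Of the 55 pairs concerned, 52 had their partner within 500 kb of the second interval and 30 involved a single bin beside it.

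**Figure D1:**
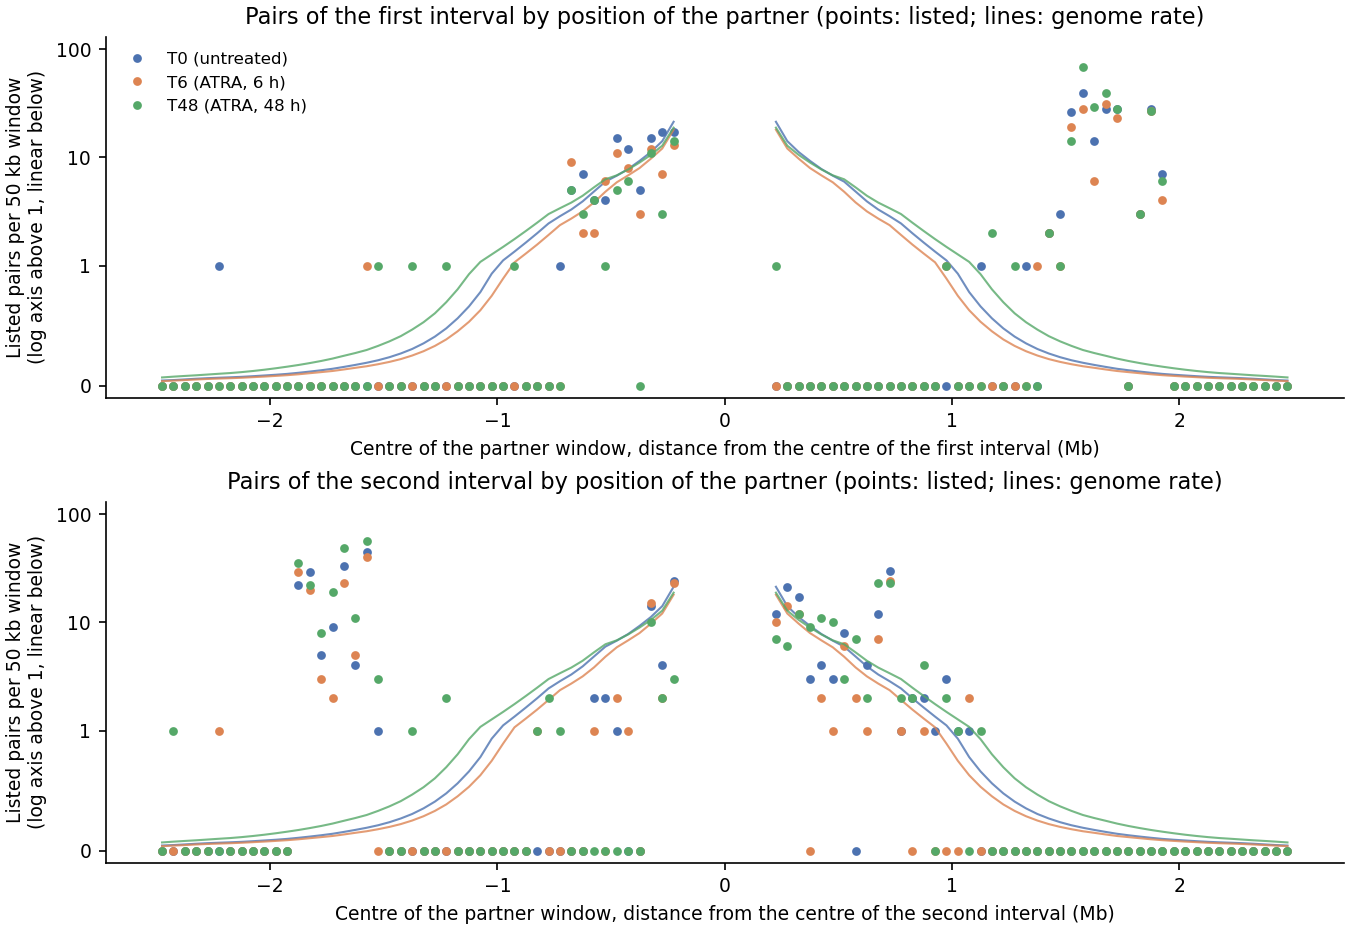
Listed pairs of each interval (points) by the centre of the 50 kb partner window, in Mb from the centre of the interval, at T0, T6 and T48, with the number that the genome rate at the same distances gives (lines); the vertical axis is logarithmic above 1 and linear below. Points rise furthest above the lines where the other interval lies, and the first interval has almost none in the near part of the stretch between.

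The second interval had 48, 45 and 25 listed pairs to the stretch between, which was 0.457, 0.510 and 0.233 times the genome rate. Every bin was again counted as possible. On its other side it showed a further block of contacts. From 450 kb beyond its end, chr13:24350001-24450000 held 42, 31 and 46 listed pairs with it, against 6.15, 5.08 and 7.20 by the genome rate. This stretch was named after its values were seen. Of its 79 pairs, 75 had their other bin in the last 50 kb of the second interval, and 6 were listed at all 3 time points. Its summed CPM, the count per 1000000 listed counts of the library, was 5.32 and 5.36 (T0), 4.46 and 5.39 (T6), and 7.38 and 7.78 (T48). The T48 libraries were the higher ones, without overlap, and the sums include pairs that entered the list only at T48.

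Pairs between the histone intervals were kept from one time point to another more often than other pairs of their length. Of the 147 listed at T0, 63 were also on the T48 list (42.9%, 95% Wilson interval 35.1 to 50.9%). Elsewhere at the same distances 7.87% were (7.45 to 8.32%). From T0 to T6 the shares were 33.3% (26.2 to 41.3%) and 8.85% (8.40 to 9.32%). From T6 to T48 they were 49.2% (40.5 to 57.9%) and 8.74% (8.26 to 9.24%). These intervals also treat bin pairs as independent, which neighbouring bins are not. All 3 time points listed 35 of the 332 pairs (10.5%), against 1.5% of 48108 pairs elsewhere. These 35 were all of 1 combination of segments, named outer to late below, and 0 of the 169 inner to early pairs were listed throughout.

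Counts of the pairs between the intervals were also higher. Their median count was 5 in replicate 1 and 4 in replicate 2 at each time point, against 3 in every library for other listed pairs at these distances. Counts at least 1.5 times the lowest listed at that distance, in both replicates, were found in 33.3% of the pairs (T0), 30.3% (T6) and 24.5% (T48). Elsewhere the shares were 7.89%, 8.74% and 8.61%. Of such pairs between the intervals, 43 of 49 (T0), 31 of 37 (T6) and 36 of 49 (T48) were of 1 combination of segments, named outer to late below. Inner to early pairs, also named below, were 6, 5 and 12 of them. Retention and counts come from the same pairs and are not separate measurements. For the 35 pairs listed throughout, the mean ratio to the median count at the same distance had a median of 2.71-fold, close to the 2.91-fold of the 724 other pairs listed throughout.

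The contacts between the clusters were not spread evenly. In tiles of 25 kb they formed a chequered pattern, with some segments of the first interval joined to some of the second and left unlisted with the rest. Segments were drawn from these tiles after the values were seen, so the counts below describe the pattern and carry no test. Which segments hold histone, tRNA or other genes is not known here, since bins were not assigned to genes. The outer segments of the first interval were chr13:21800001-21925000 and chr13:22125001-22150000, and the inner segment between them was chr13:21925001-22125000. The early segment of the second interval was chr13:23500001-23625000, and its late segments were chr13:23625001-23700000 and chr13:23825001-23875000.

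**Figure D2:**
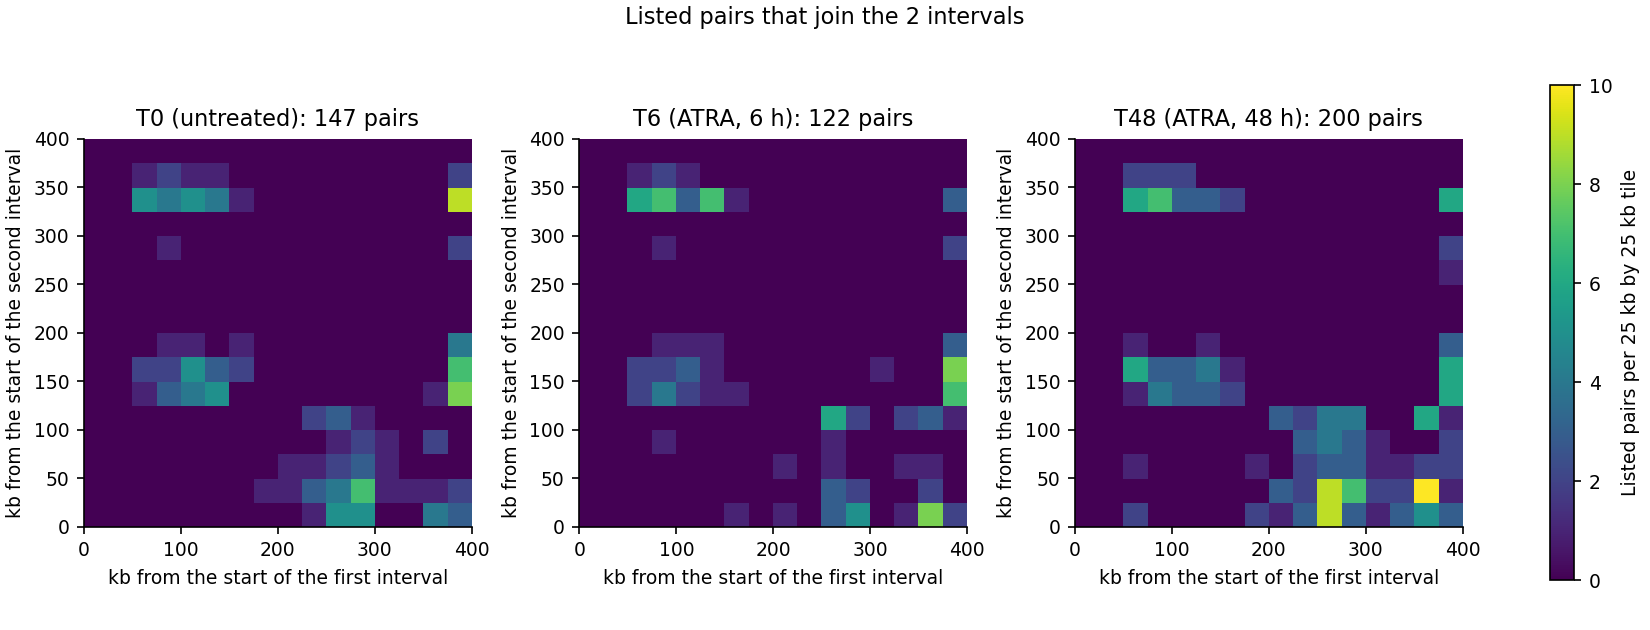
Number of listed pairs per 25 kb by 25 kb tile between the first interval (horizontal, kb from its start) and the second (vertical, kb from its start) at T0, T6 and T48, on 1 colour scale. The 147, 122 and 200 pairs gather in the same blocks at each time point, and the lower middle block is brightest at T48.

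Outer segments of the first interval were joined to late segments of the second by 84 pairs (T0), 70 (T6) and 80 (T48). The inner segment was joined to the early segment by 54, 43 and 105 pairs. The crossed combinations were nearly empty. Outer segments met the early segment in 5, 5 and 12 pairs, and the inner segment met late segments in 1, 1 and 0. Among bins with at least 1 listed pair, 20.3% of the 414 possible outer to late pairs were listed at T0, against 0.128% of the 782 possible inner to late pairs. All 35 pairs listed at every time point were outer to late pairs, and they used 7 bins of the first interval and 11 of the second.

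The same division appeared within the clusters at 100 kb or more. At T0, 35.4% of 48 possible outer to outer pairs and 40.3% of 134 inner to inner pairs of the first interval were listed. Outer to inner pairs of the same interval were listed at 1.38% of 507. At T48 these shares were 25%, 38.1% and 2.17%. In the second interval 25.4% of 126 late to late pairs were listed at T0 and 5.39% of 297 late to early pairs. At T48 they were 21.4% and 2.69%. Only 3 early to early pairs were possible at these distances, so that part of the division could not be judged in the second interval.

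The lists of the blocks differed in length over time, and this difference was not tested. From T0 to T48 the inner to early list grew 1.94 times, while the outer to late list was 0.952 times as long. Elsewhere at the same distances the list grew 1.58 times, and between the intervals as a whole 1.36 times. The summed CPM of inner to early pairs was 4.85 and 6.95 (T0), 4.76 and 7.30 (T6), and 11.8 and 14.6 (T48). Both T48 libraries lay above all 4 others. None of these pairs was listed at all 3 time points, so the sums follow which pairs were listed. Both replicates share that list, so their agreement is not separate evidence. Outer to late pairs held 15.2 and 23.7 CPM (T0), 13.6 and 23.6 (T6), and 13.7 and 21.1 (T48), which overlapped.

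As a share of the listed count at the same distances, inner to early pairs held 0.357% and 0.278% (T0), 0.323% and 0.252% (T6), and 0.515% and 0.416% (T48). Outer to late pairs held 1.12% and 0.950% (T0), 0.925% and 0.815% (T6), and 0.599% and 0.600% (T48). The T0 and T48 values did not overlap in either block, though these shares too depend on which pairs were listed. In a stricter list, with counts at least 1.5 times the lowest listed, inner to early pairs numbered 6, 5 and 12 and outer to late pairs 43, 31 and 36, so most inner to early pairs lay near the threshold of the list.

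**Figure D3:**
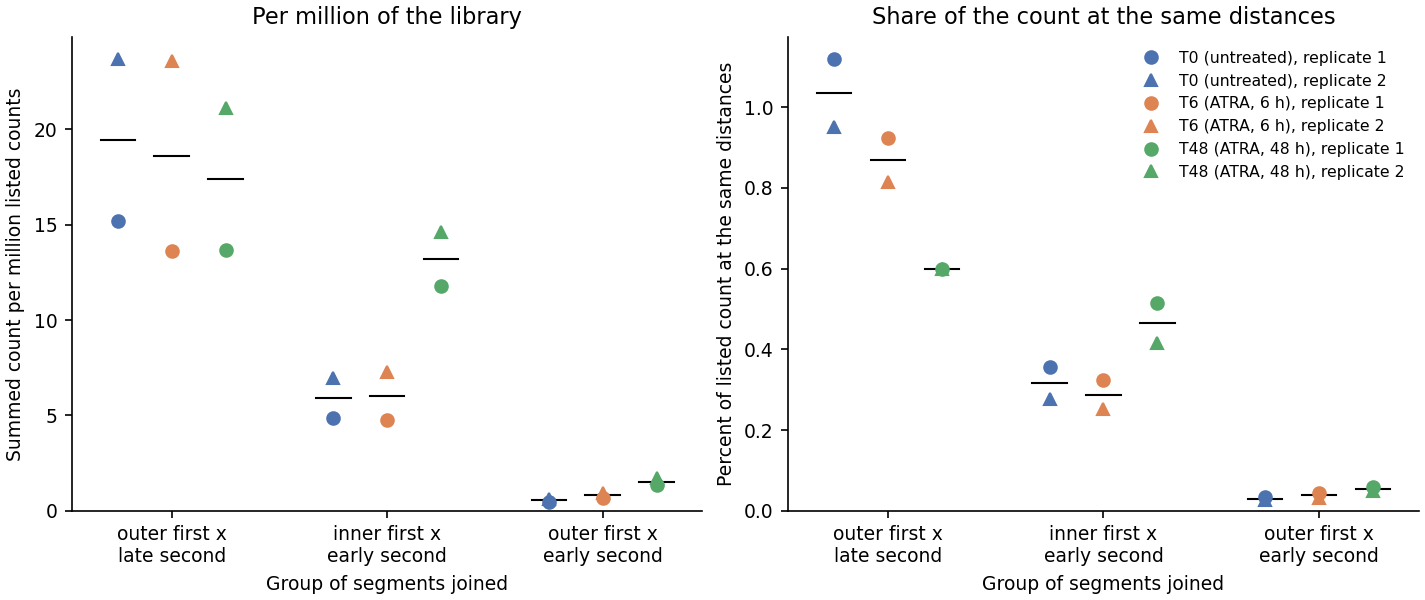
Summed count of listed pairs for 3 combinations of segments, in CPM (left) and as a percent of the listed count at the same distances (right); points are libraries, circles replicate 1 and triangles replicate 2, and bars are means of 2. Inner to early pairs are highest at T48 on both scales, and outer to late libraries overlap on the left scale and are lowest at T48 on the right. The sums include which pairs were listed, a list that both replicates share.

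For all pairs between the intervals together, the summed CPM was 20.82 and 32.11 at T0 (mean 26.46 ± 7.99, SD, n = 2), 19.38 and 33.04 at T6 (26.21 ± 9.66), and 27.10 and 38.30 at T48 (32.70 ± 7.92). The libraries of the 3 time points overlapped. T48 over T0 gave a log2 ratio of 0.305 (two-sided exact permutation test, p = 0.667, n = 2 against 2). For T6 over T0 it was -0.014 (exact permutation p = 1.0), and for T48 over T6 0.319 (exact permutation p = 0.667). With 2 libraries against 2 this exact test cannot go below p = 0.333. The T48 over T0 ratio turned to -0.31 when the sum was taken relative to the listed count at the same distances (exact permutation p = 0.333), and to -0.198 over the pairs listed at all 3 time points (p = 0.667, exact). The direction of the change between the clusters therefore depended on the scale.

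Single pairs between the clusters stood out by their counts. The pair farthest above the median for its distance joined chr13:21825001-21830000 and chr13:23845001-23850000, 2020 kb apart. Its counts were 33 and 24 (T0), 34 and 24 (T6), and 29 and 20 (T48), where the median at that distance was 3 in every library. That is 8.95 times the median on average.

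The next pair, 5.14 times the median, joined chr13:22130001-22135000 and chr13:23665001-23670000 with counts of 21 and 18, 6 and 29, and 17 and 16. Its T6 libraries lay at both extremes. The same bin of the first interval met chr13:23640001-23645000 with counts of 25 and 12, 23 and 7, and 14 and 8 (4.01 times the median). The fourth joined chr13:21870001-21875000 and chr13:23645001-23650000 with 19 and 20, 11 and 5, and 11 and 15 counts (3.55 times). The fifth joined chr13:21875001-21880000 and chr13:23660001-23665000 with 11 and 13, 8 and 9, and 11 and 12 counts (3.19 times). All 5 were outer to late pairs. None passed the edgeR test at any time point, and their adjusted p-values lay between 0.928 and 1.0.

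Few bins carried much of the contact between clusters. Of the 80 bins of each interval, 50 in the first and 42 in the second had at least 1 pair to the other interval. The 5 bins with the most held 35.0% of the first interval's total and 26.0% of the second's. The leading bin, chr13:22130001-22135000, had 19, 13 and 19 pairs to the second interval at T0, T6 and T48. Its neighbour chr13:22125001-22130000 had 14, 11 and 11. The other leading bins of the first interval were centred on 21842500 (8, 11 and 7 pairs), 21877500 (11, 7 and 8) and 21807500 (6, 7 and 12), the last tied with 21872500 (10, 7 and 8) and taken by position. Those of the second were centred on 23517500 (7, 8 and 10), 23532500 (9, 1 and 15), 23647500 (8, 9 and 8), 23662500 (8, 7 and 9) and 23607500 (4, 9 and 10), the last tied with 23837500 (6, 10 and 7) and 23847500 (9, 7 and 7). Of these bins, 23532500 had the widest range across the lists.

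Contacts within each cluster were listed more steadily than the genome at large. Of pairs 100 to 395 kb apart, 26.2% of 126 in the first interval and 34.1% of 82 in the second were listed at all 3 time points, against 6.34% genome-wide. At 25 to 95 kb the shares were 29.1%, 50.6% and 10.3%. At 5 to 20 kb they were 62.4%, 77.8% and 47.8%. The second interval had the higher share in each distance class. Its listed counts were 1.25 to 1.55 times the median at the same distance in replicate 1 at 100 to 395 kb, and 1.18 to 1.5 times in replicate 2. Those of the first interval were 1.28 to 1.5 times in replicate 1 and 1.17 to 1.2 times in replicate 2. In both replicates the second interval was higher at T0 and T48. At T6 the first was higher (1.5 against 1.25, and 1.2 against 1.18).

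Within the first interval the leading pair of at least 100 kb by this measure joined chr13:22015001-22020000 and chr13:22120001-22125000, both in the inner segment. Its counts were 39 and 16 (T0), 30 and 18 (T6), and 23 and 14 (T48), or 2.82 times the median at 105 kb. T48 over T0 gave a log2 ratio of -0.45 with a standard error of 0.237 (edgeR adjusted p = 0.950). Next came chr13:21940001-21945000 with chr13:22120001-22125000 (2.55 times the median at 180 kb) and the outer to outer pair chr13:21875001-21880000 with chr13:22125001-22130000 (1.96 times at 250 kb).

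Within the second interval all 3 named pairs joined its separate late segments. The pair of chr13:23665001-23670000 and chr13:23835001-23840000 had counts of 20 and 22 (T0), 46 and 34 (T6), and 22 and 25 (T48). The T6 libraries were the highest, without overlap (log2 T6 over T0 1.10, standard error 0.35, edgeR adjusted p = 1.0). The pair of chr13:23645001-23650000 and chr13:23830001-23835000 had 6 and 47, 14 and 39, and 12 and 43 counts, so its replicates differed far more than its time points. The pair of chr13:23645001-23650000 and chr13:23845001-23850000 had 21 and 14, 18 and 10, and 10 and 8 counts (log2 T48 over T0 -0.84, standard error 0.267, edgeR adjusted p = 0.891).

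The next comparison asked which contacts of the clusters changed in strength, using the pairs listed at all 3 time points. Of the 461 such members, 425 passed the filter on low counts. No member was called at an adjusted p under 0.05 by edgeR's quasi-likelihood test in T6 over T0, T48 over T0 or T48 over T6. The same fit called 0% of the 496203 pairs tested in each comparison. At an unadjusted p under 0.05 there were 18, 29 and 22 members, which was 4.24%, 6.82% and 5.18% of the 425, against 3.17%, 5.52% and 5.06% of all pairs. DESeq2 called no member either, and 1, 95 and 78 of all pairs.

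Median changes were small for members within the intervals and between them. For T48 over T0 the median log2 ratio was -0.02 over the 170 pairs tested within the first interval, -0.07 over the 217 within the second and -0.14 over the 24 between them, against 0.00101 over all pairs. Within the second interval 130 of the 217 lay below 0 and 87 above. Without the filter all 35 pairs between the intervals could be fitted, with a median of -0.11 and 22 below 0. For T6 over T0 the medians were -0.02, -0.07 and -0.08, against -0.00161 over all pairs. The 8 tested pairs from the second interval to the stretch between had larger changes at 48 h. Their median log2 ratio was -0.0313 for T6 over T0, -0.691 for T48 over T0 and -0.709 for T48 over T6. In each T48 comparison 7 of the 8 lay below 0. The lowest edgeR adjusted p among them was 0.781 (T48 over T0) and 0.847 (T48 over T6).

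In T6 over T0 and in T48 over T0 the 3 members with the lowest p lay within the second interval, with log2 ratios of both signs. The pair of bins centred on 23672500 and 23842500 had counts of 16 and 6 (T0), 13 and 5 (T6), and 35 and 18 (T48) (log2 T48 over T0 1.37, standard error 0.284, edgeR adjusted p = 0.640). Its T48 libraries lay above the others. The pair at 23642500 and 23837500 had 29 and 22, 7 and 8, and 10 and 4 counts (log2 T48 over T0 -1.74, standard error 0.37, edgeR adjusted p = 0.662). Its T0 libraries lay above the others. These pairs join the same 2 late segments, and neither passed the adjusted threshold.

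Broader units gave the same outcome. Counts of pairs listed throughout were summed over 50 kb windows, 16 of which cover the intervals. No member window was called by edgeR in any comparison. Over all 49387 windows the call rate was 0% for T6 over T0, 0.0263% for T48 over T0 and 0.0182% for T48 over T6. At an unadjusted p under 0.05 there were 0, 3 and 1 of the 16 (0%, 18.8% and 6.25%), against 1.73%, 8.59% and 6.72% of all windows. DESeq2 called none of the 16, and 16, 116 and 83 of 49463 windows.

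All 8 windows of the second interval had a lower count at 48 h than at T0, with log2 ratios from -0.21 to -0.03 and a median of -0.13. Over all windows 48.8% were lower, with a median of 0.00363. In the first interval 5 of 8 were lower, from -0.09 to 0.08. Neighbouring windows share pairs, so these are not 8 separate measurements.

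The lowest p was that of chr13:23850001-23900000, at the end of the second interval. Its CPM, here relative to all window sums, was 40.55 and 41.06 (T0), 41.10 and 41.57 (T6), and 35.70 and 35.05 (T48). The T48 libraries lay below the other 4 (log2 T48 over T0 -0.21, standard error 0.0512, edgeR adjusted p = 0.468; T48 over T6 -0.22, standard error 0.0514, edgeR adjusted p = 0.609). Next were chr13:23550001-23600000 (log2 T48 over T0 -0.16) and chr13:23600001-23650000 (-0.14), with edgeR adjusted p of 0.559 and 0.562. For T48 over T6 the other lowest were chr13:23600001-23650000 (-0.11) and chr13:23800001-23850000 (-0.15). For T6 over T0 they were chr13:23550001-23600000 (-0.08), chr13:22050001-22100000 (-0.07) and chr13:23650001-23700000 (-0.07), all with an edgeR adjusted p of 1.0.

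**Figure D4:**
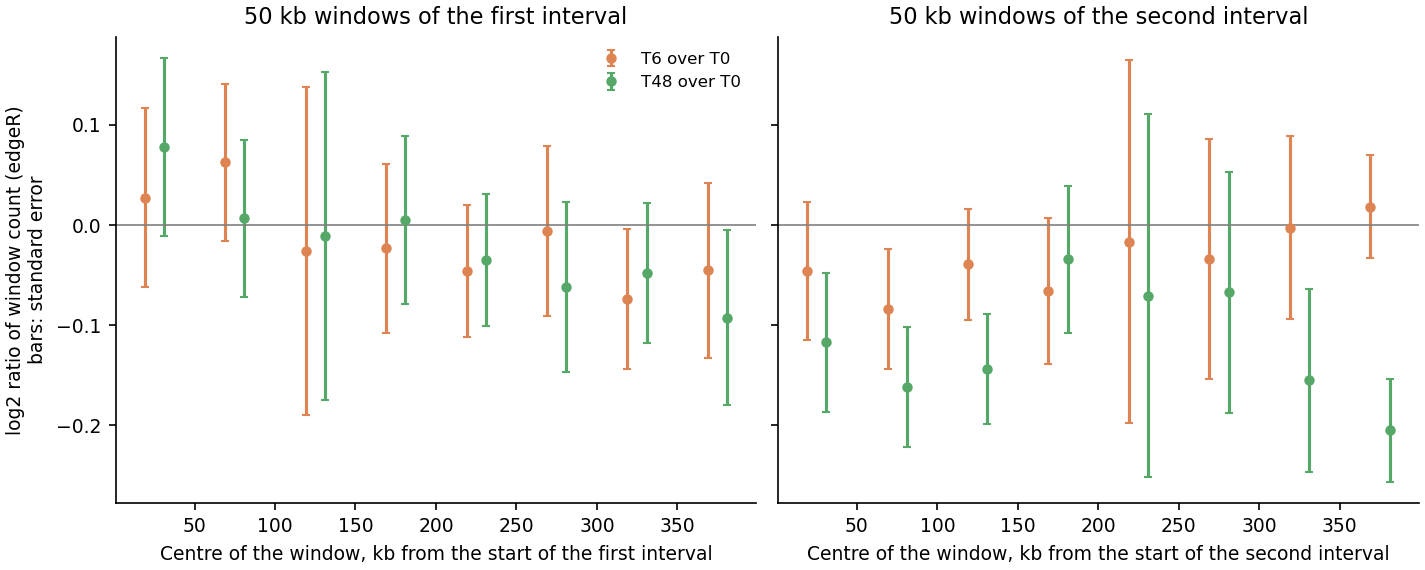
Log2 ratio of the summed count of each 50 kb window, T6 over T0 and T48 over T0, against its position in kb from the start of the interval; bars are standard errors from the edgeR fit. The 8 windows of the second interval lie between -0.21 and -0.03 at T48, and none of the 16 passed the adjusted threshold.

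Single listed pairs of the second interval to the stretch between were fewest at T48, and this came from 1 bin. The bin chr13:23490001-23495000, just before the second interval, was named after its values were seen. It had 24, 23 and 3 listed pairs with the second interval at T0, T6 and T48. All other bins of the stretch together had 24, 22 and 22. It also had 24, 18 and 10 pairs with the first interval, and 105, 89 and 33 within the stretch between.

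In all, this bin had 153 (T0), 130 (T6) and 46 (T48) listed pairs. Its summed count was 3142 and 1644 (T0), 2438 and 1331 (T6), and 265 and 470 (T48). In CPM that was 62.6 and 55.5, 60.1 and 57.9, and 6.09 and 15.9, with both T48 libraries far below the rest. These sums include which pairs were listed. The 28 pairs of the bin listed at all 3 time points had summed counts of 952 and 517 (T0), 794 and 460 (T6), and 197 and 382 (T48). Over those pairs the T48 count was also lower, with the smaller fall in replicate 2. The bins to either side had at most 18 listed pairs at any time point. Its pair with chr13:23500001-23505000, 10 kb away, had counts of 195 and 109, 157 and 88, and 37 and 84. In CPM that was 3.89 and 3.68 (T0), 3.87 and 3.83 (T6), and 0.851 and 2.84 (T48), so both T48 libraries lay below the other 4 and differed between themselves.

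**Figure D5:**
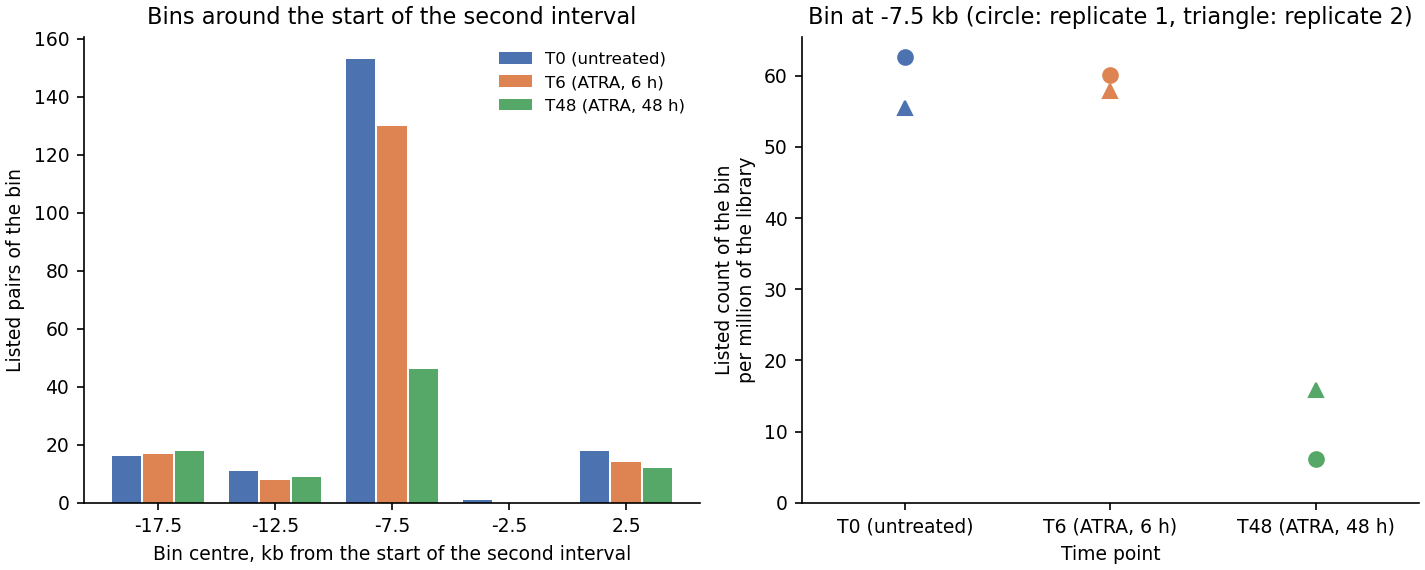
Listed pairs of the bins around the start of the second interval at T0, T6 and T48 (left, bars from 0) and the summed listed count of the bin at -7.5 kb in CPM of each library (right). This bin has 153, 130 and 46 listed pairs, and both T48 libraries lie below the other 4. The sums include which pairs were listed.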

How the data were processed

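Hi-C libraries of P19 cells (T0, T6 and T48, 2 each) were grouped by the sample titles. The authors deposited 1 table of raw read-pair counts per pair of 5 kb bins and library, with no normalization per the file headers. The submitters' processing notes name CASAVA 1.8.2, Bowtie2 and the build mm9. How significant pairs were called, with which enzyme, threshold or coverage correction, is not given in the sources used here. Sums of listed counts leave out unlisted pairs, so true depth is unknown. PCR copies were not marked by molecular identifiers, so intervals cover counting error only.

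The 4 mitochondrial pairs were left out. Members followed the interval bounds, and the members and lists were chosen with earlier results of these data known. Shares of possible pairs took every bin of an interval as possible. Changes in strength were tested on 542645 pairs, those listed at all 3 time points, since a pair that is not listed is 0 in both replicates by construction. edgeR 4.0.16 in R 4.3.3 was fitted to all 6 libraries (TMM, filterByExpr, quasi-likelihood F test, Benjamini-Hochberg over all pairs at 0.05), and again to sums per 50 kb window, where a pair with both bins in 1 window counted once. Sums between the intervals were compared by two-sided exact permutation tests. Alternatives were DESeq2 1.42.0, its size factors in edgeR, all pairs unfiltered, replicate number as a block, each library left out, windows of 25 and 100 kb, and other denominators, lists and interval bounds. The fits were also run on simulated counts, with changes placed only in features of higher mean count. Those runs do not show what could be found among pairs of low count.

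Pairs named were the 5 between the intervals and the 3 of at least 100 kb within each with the highest mean log2 ratio to the median count at the same distance, among pairs listed at all 3 time points, leaving out near copies (both bins within 10 kb). Bins named were the 5 per interval with the most pairs to the other, and windows the 3 of lowest p per comparison. Segments, the far flank stretch, the bin beside the second interval and the member pairs of lowest p were named after their values were seen.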

Additional observations from a re-analysis of the deposited data

Results flagged for a closer look

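Of 7 classes of members, 2 had a summed CPM that was higher at T6 than at T0 in both replicate numbers and lower at T48 than at T0 in both. The difference between the time points was not tested, and the sums include which pairs were listed. Within the second interval the sums were 362.7 and 332.3 (T0), 389.2 and 337.2 (T6), and 334.1 and 299.9 (T48; log2 T48 over T6 -0.196). From the second interval to the stretch between they were 21.49 and 20.71, 21.60 and 22.91, and 5.01 and 7.54 (log2 T48 over T6 -1.83). The bin chr13:23490001-23495000 held 24, 23 and 3 of the 48, 45 and 25 pairs of the latter class.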

How the results depend on the processing

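No member pair and no member window was called under any of the alternatives run (DESeq2, DESeq2 size factors, no filter, replicate block, each library left out, windows of 25 or 100 kb, pairs within a window counted once per bin), so these counts stayed at 0. The labels give no shared origin to equal replicate numbers. With the replicate block, the calls among members were 0. Over all features this edgeR fit called 0, 1 and 1 of 496203 pairs (T6 over T0, T48 over T0, T48 over T6). It called 12, 310 and 193 of 49387 windows, against 0, 13 and 9 in the main fit. The lowest adjusted p of a member window was 0.102 for T48 over T0 and 0.108 for T48 over T6 (edgeR). The log2 ratios of the count between the intervals were -0.031 (T6 over T0), 0.318 (T48 over T0) and 0.349 (T48 over T6). Within replicate numbers 1 and 2 the ratios were -0.103 and 0.041 (T6 over T0), 0.381 and 0.254 (T48 over T0), and 0.484 and 0.213 (T48 over T6), so T48 was the higher in both. The replicate differences of the time points correlated at 0.337 to 0.398 across 542645 pairs, which are not independent replicates.

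The count between the intervals changed direction with the scale. Over pairs listed at all 3 time points the log2 ratios were 0.0715 (T6 over T0), -0.198 (T48 over T0) and -0.27 (T48 over T6). Relative to the count at the same distances, T48 over T0 was -0.31 and T48 over T6 -0.111. In the stricter list T48 over T0 was -0.239. Leaving out 1 library gave -0.45 (without T6 replicate 2) to 0.332 (without T0 replicate 2) for T6 over T0, where leaving out T6 replicate 1 gave 0.32. For T48 over T0 it gave 0.0262 (without T0 replicate 1) to 0.652 (without T0 replicate 2), and for T48 over T6 -0.0148 (without T6 replicate 1) to 0.755 (without T6 replicate 2). The cause was not tested.

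Listed pairs between the intervals fell to 68, 62 and 89 at T0, T6 and T48 with both intervals narrowed by 50 kb, by construction, and to 49, 37 and 49 in the stricter list. Counting only bins with a listed pair, an alternative chosen after seeing the data, raised the share of possible pairs to 3.95%, 3.28% and 5.38%.

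Low counts limit single pairs, whose median between the intervals was 4 or 5. Lists have no replicate error, and unmapped bins cannot be told from bins without contact. Only 59 and 63 of the 80 bins of each interval had any listed pair.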

Other observations

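The flank before the first interval had fewer listed pairs with it at T48. The list held 103 (T0), 74 (T6) and 58 (T48), or 0.563 times as many at T48 as at T0. All nuclear pairs 5 to 395 kb apart gave 0.909 times. That set was not matched for distance to the flank pairs, whose median was 230 kb at T0 and 262.5 kb at T48. The summed CPM was 20.83 ± 1.51 at T0, 18.33 ± 1.13 at T6 and 13.05 ± 0.505 at T48 (SD, n = 2). Of its 212 pairs, 1 was listed at all 3 time points. The flank after the second interval listed 125, 83 and 125 pairs, with 23.12 ± 1.32, 18.85 ± 1.56 and 21.55 ± 1.35 CPM (SD, n = 2), and 10 of its 263 pairs were listed throughout.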
